A study of Homo sapiens with 8 samples.

Results

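Fibroblast growth factor (FGF) and AXL receptor signalling was followed through 10 genes picked by name out of 56638 gene symbols in the count tables. Of these, GAS6 and FGF2 encode ligands, FGFBP1 encodes a secreted carrier, and AXL, TYRO3, MERTK, MET, FGFR1, FGFR2 and FGFR3 encode the 7 receptors. They were picked for their place in the pathway, with earlier results of these data known. The question was how the level of each gene moved when the transcription factor ETS1 was lost, for a short or a long time.

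All libraries were made from SCC25 cells, a long-established line from a squamous carcinoma of the tongue, grown in medium with fetal bovine serum and 400 ng/ml hydrocortisone. For short-term loss, cells received pooled small interfering RNAs (siRNA) against ETS1 (the ETS1 siRNA group) or a control siRNA (siRNA control). For long-term loss, cells carried a lentiviral short hairpin RNA (shRNA) against ETS1 (shETS1), labelled as hairpin 3, or a control hairpin (shCON). They were selected with 2 ug/ml puromycin after transduction. Each of the 4 groups had 2 libraries, and long-term loss rests on 1 hairpin. The study's methods call the siRNA replicates biological. For the hairpin libraries neither labels nor methods say that replicates were separate cultures, so there the p-values measure the spread between these libraries, which may be technical.

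Receptor tyrosine kinases pass an outside signal into the cell by phosphorylating themselves and their docking proteins when a ligand brings them together. GAS6 binds AXL, TYRO3 and MERTK, the TAM receptors, which act in survival, cell spreading and the clearance of dying cells. FGF2 binds FGF receptors together with heparan sulphate, and FGFBP1 releases FGFs held by the extracellular matrix. MET is the receptor for hepatocyte growth factor (HGF), and all of these receptors are studied as drivers of growth and invasion in squamous carcinoma.

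ETS1 binds DNA at a GGAA core, and promoter sequences are printed for the genes on which the comparisons below turn most: FGF2 and AXL, which fell most after long-term loss, FGFR2, which rose most, and FGFBP1, which moved in opposite directions in the knockdowns. Each sequence is the 250 bases before the most upstream RefSeq start of the gene, on the gene's strand, from assembly GRCh38.p14. The positions are chr4:122826581-122826830 for FGF2 and chr19:41218973-41219222 for AXL, both on the plus strand, and chr10:121598445-121598694 for FGFR2 and chr4:15938741-15938990 for FGFBP1, both on the minus strand. Capitals mark GGAA on the gene's strand and TTCC, the same core on the opposite strand.
FGF2: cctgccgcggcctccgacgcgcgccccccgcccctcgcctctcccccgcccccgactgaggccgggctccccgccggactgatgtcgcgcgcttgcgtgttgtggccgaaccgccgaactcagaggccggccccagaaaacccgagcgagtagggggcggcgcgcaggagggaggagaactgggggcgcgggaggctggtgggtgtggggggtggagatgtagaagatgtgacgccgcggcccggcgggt
AXL: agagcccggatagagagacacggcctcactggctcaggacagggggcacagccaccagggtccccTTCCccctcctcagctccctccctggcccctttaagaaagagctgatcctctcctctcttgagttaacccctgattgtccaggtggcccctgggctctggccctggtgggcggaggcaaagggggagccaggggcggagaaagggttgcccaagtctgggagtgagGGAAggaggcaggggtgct
FGFR2: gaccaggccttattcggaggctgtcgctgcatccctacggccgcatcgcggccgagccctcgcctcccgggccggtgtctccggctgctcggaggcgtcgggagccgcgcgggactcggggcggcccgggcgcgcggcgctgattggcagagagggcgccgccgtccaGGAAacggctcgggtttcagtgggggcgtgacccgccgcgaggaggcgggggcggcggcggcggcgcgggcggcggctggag
FGFBP1: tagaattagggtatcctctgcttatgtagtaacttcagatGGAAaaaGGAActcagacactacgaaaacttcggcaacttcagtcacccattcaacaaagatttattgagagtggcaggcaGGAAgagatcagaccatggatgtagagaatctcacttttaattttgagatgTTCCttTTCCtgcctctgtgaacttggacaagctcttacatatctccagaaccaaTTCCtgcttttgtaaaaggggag

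The core was found 0 times in the FGF2 window, 2 times in AXL, 1 time in FGFR2 and 6 times in FGFBP1. Of the other 5 windows searched, FGFR3 held 0 matches, TYRO3 held 2, MERTK held 3, and GAS6 and MET held 4 each. For FGFR2 5 starts are listed, and 2 each for AXL and TYRO3. Windows before their further starts were not searched. Among all 35116 promoter windows of the same length, 92.7% held the core on either strand, with a median of 3 matches. The longer forms CGGAAG and GGAAGT, both of which contain the core, were found in 16.5% and 19.5% of all windows and in none of the 9 searched here. ETS1 binding data were not analysed here, so the matches describe the letters in these windows only.

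The libraries held between 15954616 and 25953213 counts. ETS1 itself was counted 5726 and 3977 times with the control siRNA against 299 and 268 times with ETS1 siRNA, and 2069 and 1871 times with the control hairpin against 224 and 279 times with the ETS1 hairpin. It was thus low in every knockdown library, 17.6-fold lower after siRNA and 7.40-fold lower after shRNA. The shRNA libraries also contained structural RNAs without a poly(A) tail, at 5.61% and 6.63% of counts in shCON and 12.3% and 9.64% in shETS1, against at most 0.00339% in siRNA libraries. Mitochondrial genes held 0% of counts in every siRNA library and 0.508% to 0.82% in the shRNA libraries. All 8 squamous epithelial markers, among them KRT5, KRT14 and TP63, had at least 10 counts in every library. After shRNA 5 of the 8 were called higher and 2 lower, TP63 (log2 fold change -0.40, adjusted p = 0.0013, edgeR) and EPCAM (-0.60, adjusted p = 4.5e-06), and after siRNA 0 were called by edgeR, with 4 at an unadjusted p under 0.05. The summed level of all 8, most of it from keratins, in CPM (counts scaled to a common library size) was 14600 to 19200 for siRNA control, rising to 21900 to 25900 with ETS1 siRNA, and 15300 to 15400 for shCON against 25600 to 26000 for shETS1.

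A gene was called changed at an adjusted p (Benjamini-Hochberg) under 0.1, the threshold of the study, in edgeR's quasi-likelihood test over all genes. After siRNA, 3.41% of the 14742 genes tested were called, 1.13% higher and 2.27% lower. After shRNA, 60.6% of 16481 genes were called, 29.7% higher and 30.9% lower. Against that background, 1 of the 10 genes was called after siRNA, FGFBP1, which was higher. After shRNA 8 of 10 were called, with GAS6, FGFR2 and FGFR3 higher and AXL, TYRO3, FGF2, FGFBP1 and MET lower. The count after shRNA is read against the 60.6% of all genes that moved with the hairpin. The median log2 fold change of the 10 genes was 0.09 after siRNA and -0.22 after shRNA.

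**Figure D1:**
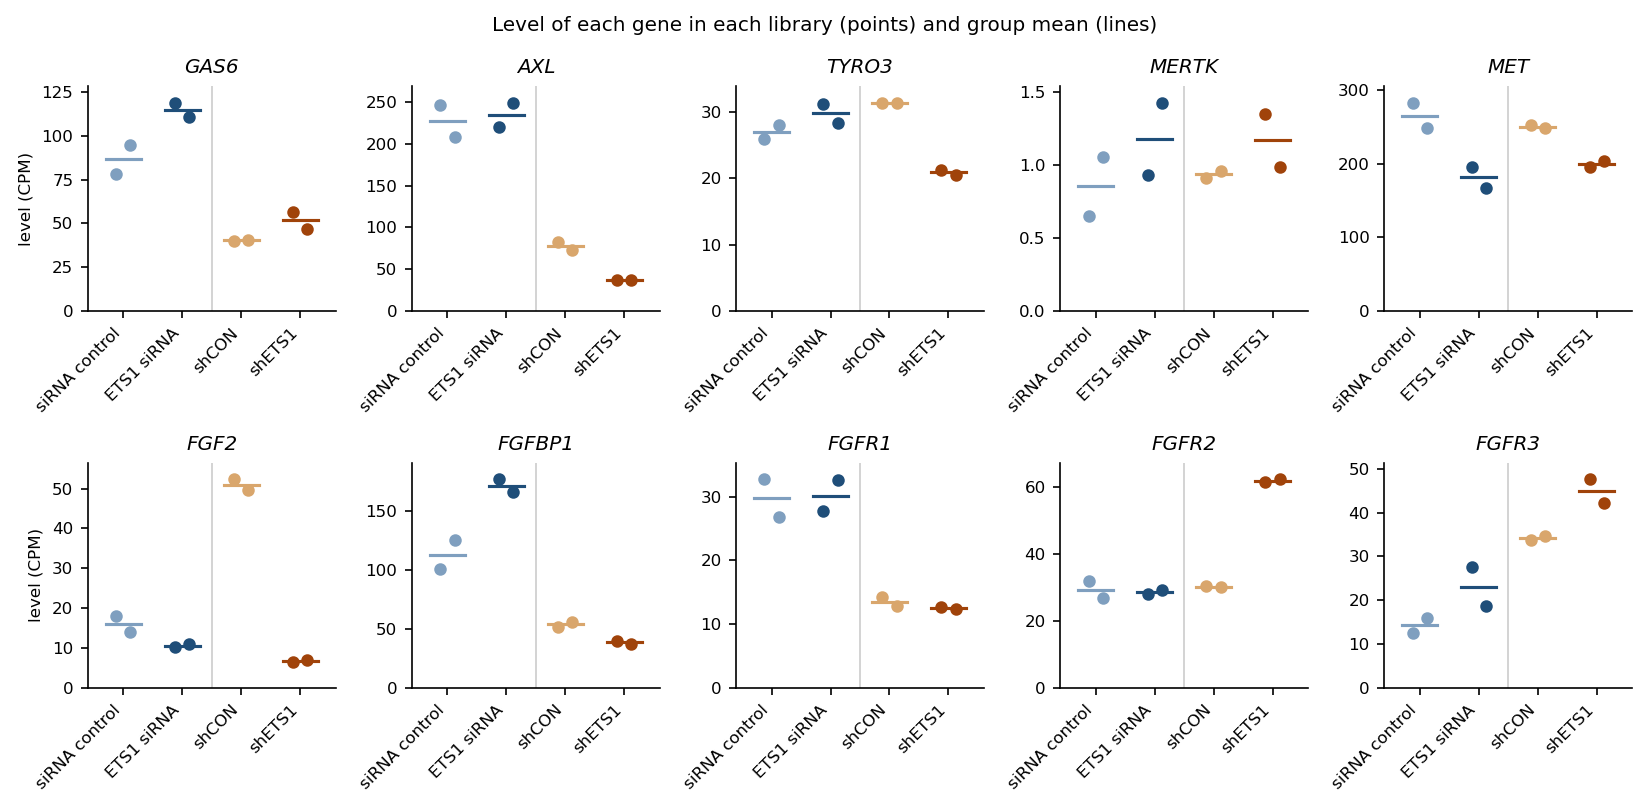
Level of each of the 10 genes as CPM (vertical axis from 0) in each library (points), with the mean of the 2 libraries of a group (lines). The grey line parts the siRNA table from the shRNA table, whose levels were scaled separately; FGF2 falls from 52.4 and 49.7 to 6.32 and 7.02 CPM after the hairpin, and FGFR2 rises from 30.4 and 29.9 to 61.4 and 62.2.

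FGF2, a broad-acting growth factor and the FGF ligand of the set, moved most. Its level was 52.4 and 49.7 CPM in shCON and 6.32 and 7.02 CPM in shETS1, from 1318 and 1290 counts down to 145 and 177. The groups lie far apart and each is tight. The fall was 7.64-fold (log2 fold change -2.93, SE 0.10, adjusted p = 4.2e-13, edgeR).

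In the siRNA libraries FGF2 stood at 18 and 14 CPM in the control and 10.2 and 10.9 CPM after ETS1 siRNA. Both knockdown libraries lay below both controls, but the log2 fold change of -0.60 (SE 0.18) did not pass the threshold (adjusted p = 0.14, edgeR). FGF2 shares 804 bases, 11.82% of its exon length, with NUDT6 on the opposite strand. NUDT6 was counted 108 and 130 times in shCON and 74 and 96 times in shETS1, far fewer than FGF2 in shCON, and whether counting used strand is not stated.

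FGFBP1, the carrier that frees FGFs from the matrix, went up in one knockdown and down in the other. Its level was 101 and 125 CPM with the control siRNA against 177 and 166 CPM with ETS1 siRNA, without overlap, a 1.52-fold rise (log2 fold change 0.61, SE 0.15, adjusted p = 0.099, edgeR). That p sits at the threshold: without replicate 1 of siRNA control the log2 fold change was 0.46 with an adjusted p of 0.73, without replicate 2 of ETS1 siRNA it was 0.65 with 0.11, and over 14 alternative settings the adjusted p ran from 0.0041 to 0.73. With the replicate number as a block the adjusted p was 0.26.

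After the hairpin FGFBP1 went from 51.8 and 56.0 CPM in shCON to 39.9 and 36.9 CPM in shETS1. The libraries again did not overlap, and the level was 1.40-fold lower (log2 fold change -0.49, SE 0.08, adjusted p = 8.5e-05, edgeR). This call held in all 14 alternative settings.

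FGFR2, the FGF receptor best known from epithelia, rose with long-term loss. It was at 30.4 and 29.9 CPM in shCON and 61.4 and 62.2 CPM in shETS1, a 2.05-fold rise (log2 fold change 1.04, SE 0.08, adjusted p = 8.3e-09, edgeR). The difference between groups was many times that between replicates. With siRNA it was at 31.7 and 26.8 CPM in the control and 27.8 and 29.2 CPM in the knockdown, which lay inside the range of the controls (log2 fold change -0.04, SE 0.14, adjusted p = 0.91).

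FGFR3, a second epithelial FGF receptor, was higher in every knockdown library than in any library of its own control. It went from 33.7 and 34.6 to 47.7 and 42.3 CPM with the hairpin, 1.32-fold (log2 fold change 0.40, SE 0.09, adjusted p = 0.00087, edgeR). With siRNA it went from 12.4 and 16 to 27.5 and 18.7 CPM. The larger log2 fold change of 0.70 (SE 0.22) did not pass there (adjusted p = 0.15, edgeR).

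FGFR1, the FGF receptor linked most with mesenchymal cells, differed little from control in either knockdown. Its siRNA control libraries had 32.8 and 26.8 CPM and the ETS1 siRNA libraries 27.8 and 32.6 CPM, where the groups overlapped (log2 fold change 0.02, SE 0.15, adjusted p = 0.97). With the hairpins it was at 14.2 and 12.8 CPM for shCON against 12.6 and 12.3 CPM for shETS1, a log2 difference of -0.11 (SE 0.11, adjusted p = 0.43, edgeR). FGFR1 shares 138 bases of exon, 0.8% of its exon length, with LETM2 on chromosome 8. It shares 387 bases, 2.25%, with a noncoding RNA, and both neighbours lie on the opposite strand. LETM2 was counted 268 and 292 times in shCON and 163 and 232 times in shETS1.

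**Figure D2:**
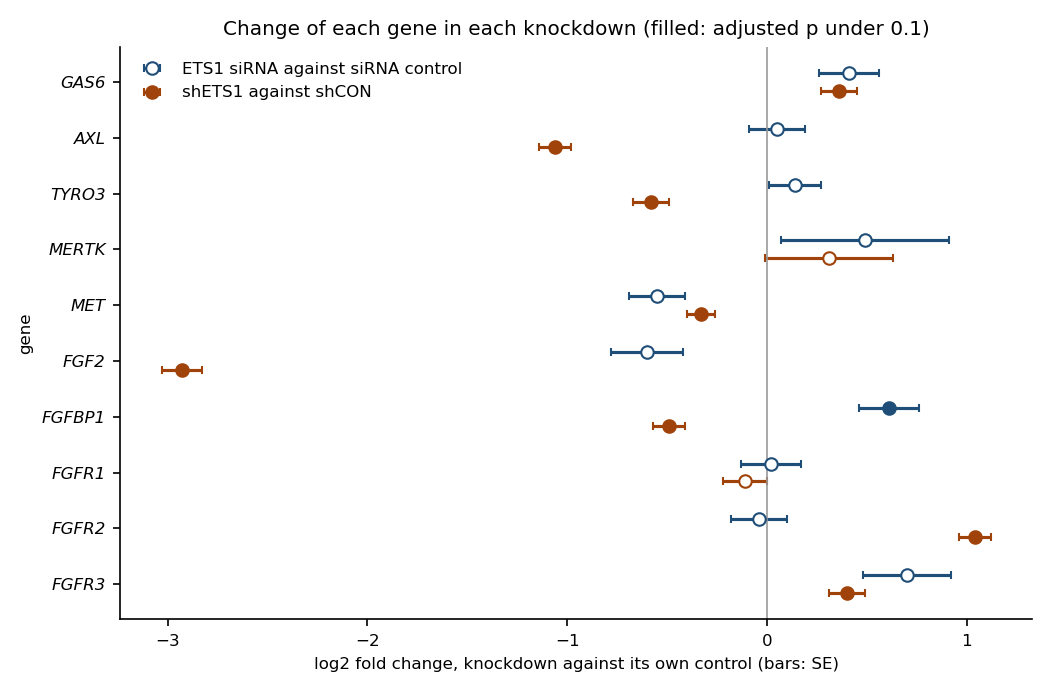
Log2 fold change of each gene (horizontal axis) in the siRNA comparison (blue) and the shRNA comparison (brown), each against its own control, with bars of 1 SE; filled points passed an adjusted p under 0.1. FGF2 at -2.93 and FGFR2 at 1.04 mark the ends of the shRNA range, while 9 of the 10 siRNA points are open.

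Among the TAM receptors AXL was the most abundant and fell most. It was at 82.0 and 72.8 CPM in shCON and 37.3 and 37 CPM in shETS1, a 2.08-fold fall with no overlap (log2 fold change -1.06, SE 0.08, adjusted p = 1e-08, edgeR). In the siRNA libraries it was at 246 and 208 CPM in the control and 220 and 249 CPM in the knockdown. These groups overlapped, and the log2 fold change was 0.05 (SE 0.14, adjusted p = 0.90).

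TYRO3, a TAM receptor that also binds protein S, showed the same split between knockdowns at a smaller size. It went from 31.3 and 31.4 CPM in shCON to 21.3 and 20.5 CPM in shETS1, a 1.5-fold fall (log2 fold change -0.58, SE 0.09, adjusted p = 3.5e-05, edgeR). With the control siRNA it was at 25.9 and 28.1 CPM, against 31.2 and 28.4 CPM with ETS1 siRNA. The siRNA groups did not overlap, but the log2 fold change of 0.14 (SE 0.13) did not pass (adjusted p = 0.61). A pseudogene of similar sequence, TYRO3P, had at most 10 counts in any library.

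MERTK, the TAM receptor best known from macrophages, was close to the limit of what could be measured. Its counts were 13 and 17 with the control siRNA against 16 and 29 with ETS1 siRNA. With the hairpins they were 23 and 25 for shCON against 31 and 25 for shETS1. At this depth no difference was detectable, with log2 fold changes of 0.49 (SE 0.42, adjusted p = 0.57) after siRNA and 0.31 (SE 0.32, adjusted p = 0.44) after shRNA.

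GAS6, the ligand of these receptors, was higher in the knockdown libraries of both comparisons. It went from 40.1 and 40.5 to 56.4 and 47.1 CPM with the hairpin, a 1.28-fold rise (log2 fold change 0.36, SE 0.09, adjusted p = 0.0028, edgeR). With siRNA it went from 78.1 and 95.0 to 119 and 111 CPM without overlap, and the log2 fold change of 0.41 (SE 0.15) did not pass (adjusted p = 0.20). Its antisense neighbour GAS6-AS1 had at most 3 counts per library.

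MET was lower in both knockdowns. It went from 252 and 248 CPM in shCON to 195 and 204 CPM in shETS1, a 1.25-fold fall (log2 fold change -0.33, SE 0.07, adjusted p = 0.00093, edgeR). After siRNA it went from 283 and 248 to 196 and 167 CPM, with no overlap, and the log2 fold change of -0.55 (SE 0.14) missed the threshold (adjusted p = 0.11). HGF, its ligand, had 0 counts in 7 libraries and 3 in the other, and a count of 0 allows a level of up to 0.12 to 0.19 CPM.

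Whether the knockdowns differed was tested directly, taking the siRNA effect away from the shRNA effect. By this test 34.8% of 17190 genes were called, 15.1% with a positive difference and 19.7% with a negative one. Of the 10 genes 5 were called. FGF2 gave the largest difference, -2.35 on the log2 scale (SE 0.20, adjusted p = 3.8e-05), followed by AXL at -1.13 (SE 0.16, adjusted p = 0.00068) and FGFBP1 at -1.11 (SE 0.17, adjusted p = 0.00082). TYRO3 differed by -0.75 (SE 0.14, adjusted p = 0.0032) and FGFR2, the one higher with the hairpin, by 1.05 (SE 0.15, adjusted p = 0.00056).

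For GAS6, MET, FGFR3, FGFR1 and MERTK the difference between knockdowns did not pass, with adjusted p from 0.36 to 0.82. The differences were -0.07 (SE 0.17) for GAS6, 0.20 (SE 0.15) for MET, -0.33 (SE 0.24) for FGFR3, -0.15 (SE 0.19) for FGFR1 and -0.21 (SE 0.51) for MERTK, on the log2 scale. Duration, delivery, the targeting RNAs (pooled siRNAs against 1 hairpin) and puromycin selection changed together between the siRNA and the shRNA libraries. The shares of structural RNAs and of mitochondrial counts changed with them, and the parts of all of these in the differences cannot be told apart. The 2 control groups also differed from each other. Within a library, the ratio of AXL to TYRO3 counts was 9.51 and 7.42 in siRNA control and 2.62 and 2.32 in shCON. For FGF2 to FGFBP1 it was 0.179 and 0.112 against 1.01 and 0.888, while AXL to GAS6 differed less, at 3.15 and 2.19 against 2.04 and 1.80. Levels of a gene in bulk RNA also cannot tell fewer cells of a kind from less RNA per cell.

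In GRCh37, the build of the counts, the ligand and carrier genes lie as follows: FGF2 at chr4:123747837-123819391 on the plus strand, and FGFBP1 at chr4:15937200-15940363 and GAS6 at chr13:114523522-114567049 on the minus strand. The receptor genes on the plus strand are AXL at chr19:41725128-41767671, TYRO3 at chr15:41849873-41875787, MERTK at chr2:112656184-112787138, MET at chr7:116312250-116438431 and FGFR3 at chr4:1795020-1810599. On the minus strand are FGFR2 at chr10:123237846-123357972 and FGFR1 on chromosome 8. Counts are over all exons of a gene, so isoforms of these receptors were not told apart.

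Levels were ordered between genes per kilobase of exon, within each control group. In siRNA control the order was FGFBP1 at 83.5 CPM per kb, AXL at 44.3, MET at 36.7 and GAS6 at 14.4, then FGFR3 at 2.92, TYRO3 at 2.50, FGF2 at 2.36, FGFR1 at 1.73, FGFR2 at 1.55 and MERTK at 0.207. FGFR3, TYRO3 and FGF2 overlapped their neighbours in this order, as did FGFR1 and FGFR2. With the longest transcript as the length, FGFR1 at 4.80 and FGFR2 at 4.20 CPM per kb came above TYRO3, FGFR3 and FGF2, so that stretch of the order depends on the length used.

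In shCON FGFBP1 led again at 39.9 CPM per kb, followed by MET at 34.7 and AXL at 15.1. FGF2 came next at 7.51, then FGFR3 at 7.04, GAS6 at 6.70, TYRO3 at 2.91, FGFR2 at 1.60, FGFR1 at 0.782 and MERTK at 0.227. No neighbours in this order overlapped between replicates. By longest transcript GAS6 at 15.2 and FGFR3 at 7.93 CPM per kb came above FGF2 at 7.51. FGFR2 at 4.33 likewise came above TYRO3 at 3.9, so these stretches of the order depend on the length used. In shETS1 FGF2 dropped to 0.980 CPM per kb, below FGFR2 at 3.28 and TYRO3 at 1.94.

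Ratios of counts within one library do not depend on the scaling. FGF2 over FGFR2 was 1.73 and 1.66 in shCON and 0.103 and 0.113 in shETS1, against 0.569 and 0.523 with the control siRNA and 0.368 and 0.373 with ETS1 siRNA. The ratio fell in both knockdowns without overlap, and was highest in shCON. FGF2 over its carrier FGFBP1 fell likewise, from 1.01 and 0.888 in shCON to 0.158 and 0.190 in shETS1.

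The balance among receptors moved too. FGFR2 over FGFR1 was 2.15 and 2.34 in shCON and 4.88 and 5.06 in shETS1, but 0.966 and 1.00 with the control siRNA and 1.00 and 0.897 with ETS1 siRNA. Per kb of exon, FGFR2 made up 17.2% and 16.8% of the level of FGFR1, FGFR2 and FGFR3 in shCON and 23.6% and 25.9% in shETS1. FGFR3 held the largest share in every library by this length, between 41.6% and 75.4%, but by longest transcript FGFR1 led in the siRNA control libraries at 41.5% and 36.3%.

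The receptor AXL lost ground to its ligand with the hairpin. AXL over GAS6 was 2.04 and 1.80 in shCON and 0.661 and 0.787 in shETS1, while with siRNA it was 3.15 and 2.19 in the control and 1.85 and 2.25 in the knockdown, which overlapped. AXL over TYRO3 was 2.62 and 2.32 in shCON and 1.75 and 1.81 in shETS1. Per kb of exon, AXL held 83.6% and 81.9% of the TAM receptor level in shCON and 75.9% and 77.1% in shETS1, and at least 93.2% in the siRNA libraries.

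**Figure D3:**
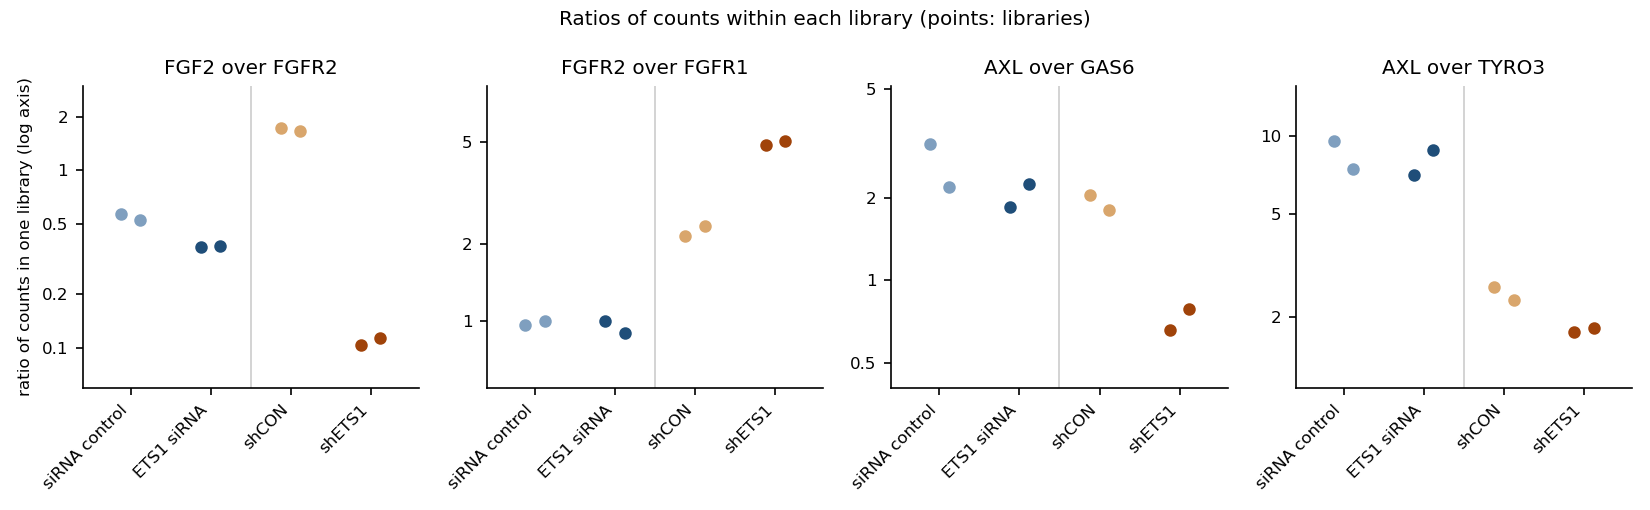
Ratio of the counts of a pair of genes within each library (points) on a log axis, by group, with the siRNA table left of the grey line and the shRNA table right of it. FGF2 over FGFR2 falls from 1.73 and 1.66 in shCON to 0.103 and 0.113 in shETS1, and FGFR2 over FGFR1 rises from 2.15 and 2.34 to 4.88 and 5.06.

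The rest of the pathway was followed through 7 lists holding 126 genes. After siRNA 7 of the 86 tested were called, 1 higher and 6 lower, which is 8.14%, against 3.41% of all genes. After shRNA 52 of 88 were called, 23 higher and 29 lower, or 59.1%, close to the 60.6% of all genes. The counts of single lists below are read against these shares of all genes.

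FGF response genes, which receptor signalling through ERK switches on and most of which feed back on it, moved in one direction with the hairpin. Of 10 tested 7 were called after shRNA, all 7 lower, with a median log2 fold change of -1.19 against 0.00066 over all genes. The share called, 70%, was near the 60.6% of all genes, of which 30.9% were lower. ETV4, a transcription factor of the ETS family, was counted 773 and 758 times in shCON and 135 and 133 times in shETS1, a 5.38-fold fall (log2 fold change -2.43, SE 0.12, adjusted p = 1.7e-11, edgeR). DUSP6, a phosphatase that switches off ERK, went from 756 and 822 to 254 and 224 counts, 3.10-fold lower (log2 fold change -1.63, SE 0.11, adjusted p = 2.3e-09).

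The other 5 called response genes, SPRY1, SPRY2, SPRY4, SPRED2 and ETV5, are named here after their values were seen. SPRY2 and SPRY4, inhibitors of receptor signalling, had log2 fold changes of -1.34 and -1.96. ETV5, a relative of ETV4, was at -1.19 and SPRED2 at -0.55. After siRNA 1 of the 10 was called, DUSP6, 1.53-fold lower (log2 fold change -0.61, SE 0.12, adjusted p = 0.055, edgeR), and the list's median was -0.03. That call was lost without replicate 1 or 2 of siRNA control, at log2 fold changes of -0.55 and -0.66, and with the replicate block, at an adjusted p of 0.18. DUSP6 shares 28.63% of its exon length with a long noncoding RNA on the opposite strand.

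Receptor adaptors, the docking and exchange proteins inside the cell, had 4 of 15 called after siRNA, all 4 lower, with a median log2 fold change of -0.33. Over all genes 3.41% were called and 2.27% were lower. The count was 2 without replicate 1 or replicate 2 of siRNA control, without replicate 2 of ETS1 siRNA and with the replicate block. PTPN11, a phosphatase needed for ERK signalling from many receptors, went from 6479 and 4633 counts in siRNA control to 2290 and 2256 in ETS1 siRNA (log2 fold change -1.33, SE 0.15, adjusted p = 0.011, edgeR). FRS2, the docking protein of the FGF receptors, went from 1238 and 872 to 528 and 538 counts (log2 fold change -1.03, SE 0.14, adjusted p = 0.016). CRK at -0.60 and PIK3R1 at -0.61 were the others, named after their values were seen, and these 2 calls were the ones lost.

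With the hairpin 8 of the 15 adaptors were called, 5 higher and 3 lower, with a median of -0.02. That is 53.3%, against 60.6% of all genes. PTPN11 was called lower again (log2 fold change -0.44, adjusted p = 0.00017, edgeR), while FRS2 (0.20, adjusted p = 0.043) and CRK (0.34, adjusted p = 0.00085) were called higher, opposite to their siRNA changes. SOS2, an exchange factor for RAS, rose 2.15-fold (log2 fold change 1.11, SE 0.07, adjusted p = 1.2e-09) and CBLB, a ubiquitin ligase that damps receptors, rose 2.36-fold (1.24, SE 0.08, adjusted p = 1.7e-09). Its relative CBL fell by 1.02 on the log2 scale (SE 0.13, adjusted p = 3.4e-06), and the adaptor CRKL fell by 0.51 (SE 0.08, adjusted p = 2e-05).

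Of the other 51 receptor tyrosine kinases, 34 were tested after siRNA and 2 called, the ephrin receptors EPHB3 at 0.58 (SE 0.14, adjusted p = 0.093) and EPHA2 at -0.65 (SE 0.13, adjusted p = 0.064). Both calls were lost without replicate 1 of siRNA control (log2 fold changes of 0.50 and -0.56), EPHB3 also without replicate 2 (0.66) and EPHA2 without replicate 2 of ETS1 siRNA (-0.60). With the replicate block their adjusted p-values were 0.26 and 0.19. After shRNA 21 of 35 were called, 10 higher and 11 lower, with a median log2 fold change of -0.03. That is 60.0%, near the background of all genes. KDR, a receptor for vascular endothelial growth factor, was counted 46 and 44 times in shCON and 550 and 600 times in shETS1, 13.5-fold higher (log2 fold change 3.76, SE 0.14, adjusted p = 9.8e-13, edgeR).

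KDR also stands on the list of endothelial markers, whose summed level was 2.08 to 2.11 CPM in shCON and 24.7 to 24.8 CPM in shETS1, and 2 of its 2 tested markers were called higher. The other of these was TEK, a receptor for angiopoietins, with 2 and 3 counts in shCON against 16 and 24 in shETS1 (log2 fold change 3.02, SE 0.57, adjusted p = 0.00023, edgeR). Of the remaining endothelial markers CDH5 was at 0 in every shRNA library, VWF had 7 counts or fewer there, and PECAM1, whose symbol had no match in the annotation used here, was listed at 0 in all 8 libraries. Fibroblast markers summed to 269 to 294 CPM in shCON and 2150 to 2260 CPM in shETS1, and 6 of the 6 tested were called higher. Most of the shETS1 sum came from LUM and DCN, at means of 1320 and 661 CPM. THY1 and PDGFRB, also on the list, had 9 counts or fewer in every shRNA library and were not tested there. The called markers of both lists moved with every hairpin result above, and their part in the results was not tested. In the siRNA libraries fibroblast markers summed to 202 to 236 CPM in the control and 301 to 353 CPM in the knockdown. Of the 8 tested there 1 was called, COL1A1, which was higher (log2 fold change 0.73, adjusted p = 0.05, edgeR). PDGFRB (-0.56), THY1 (-0.23) and FAP (-0.19) had log2 fold changes below 0, and the rest were above 0.

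ROS1 and EPHA4 were the next called, at 3.65-fold (log2 fold change 1.87, SE 0.08, adjusted p = 2.4e-12) and 3.99-fold (2.00, SE 0.09, adjusted p = 5.9e-12) higher. EPHA1 rose by a smaller 1.22-fold (0.29, SE 0.08, adjusted p = 0.0068), a call that was lost without replicate 1 of shETS1 (0.16), with library size only and with all 8 libraries in one fit. Among those that fell were MST1R, the nearest relative of MET, at 2.32-fold lower (log2 fold change -1.22, SE 0.12, adjusted p = 1.2e-07), and EPHB2 at 2.1-fold (-1.07, SE 0.09, adjusted p = 1.5e-08). IGF1R, the receptor for insulin-like growth factors, fell 1.72-fold (-0.79, SE 0.13, adjusted p = 7.7e-05) and EPHA2 1.43-fold (-0.52, SE 0.08, adjusted p = 4.4e-05). EGFR, a much studied receptor in this cancer and named outside the rule for that reason, had log2 fold changes of 0.05 (SE 0.16) after siRNA and -0.05 (SE 0.12) after shRNA.

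Of 21 other genes of the FGF family, 7 could be tested after siRNA and 0 were called by edgeR, with 1 at an unadjusted p under 0.05. With the hairpin 5 of 8 were called at low counts, 62.5% against 60.6% of all genes. The 5 are named after their values were seen. FGF19, an endocrine FGF, was counted 24 and 13 times in shCON and 4 and 0 times in shETS1, and FGF1 16 and 16 against 2 and 7 times. FGF13 was also lower, at 12 and 21 against 2 and 4 counts. FGF7, a ligand of the epithelial form of FGFR2, was at 18 and 19 against 33 and 26 counts, and FGF11, whose exons are shared with a noncoding RNA over 82.07% of their length, at 28 and 20 against 55 and 42.

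Among 15 co-receptors and carriers, 10 were tested after siRNA and 0 called by edgeR, with 3 at an unadjusted p under 0.05. With the hairpin 7 of 10 were called, 3 higher and 4 lower, or 70%, near the 60.6% of all genes. SDC2, a syndecan that presents FGFs on heparan sulphate chains, rose 4.32-fold (log2 fold change 2.11, SE 0.16, adjusted p = 7.4e-09), and SDC1, the syndecan typical of epithelia, rose 1.20-fold (0.26, SE 0.08, adjusted p = 0.011), a call also lost without replicate 1 of shETS1 (0.16) and with library size only. SDC3 fell 1.74-fold (-0.80, SE 0.10, adjusted p = 2.2e-06), and the glypican GPC1 fell 1.37-fold (-0.46, SE 0.07, adjusted p = 3.6e-05).

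Of 7 partners of the AXL family tested after siRNA 0 were called by edgeR, with 1 at an unadjusted p under 0.05. With the hairpin 3 of 7 were, 42.9% against 60.6% of all genes. PROS1, protein S, the other ligand of TYRO3 and MERTK, was counted 134 and 165 times in shCON and 440 and 445 times in shETS1, 3.14-fold higher (log2 fold change 1.65, SE 0.13, adjusted p = 9.3e-09, edgeR). LGALS3, a galectin that binds MERTK, rose 1.27-fold (0.34, SE 0.07, adjusted p = 0.00063), and TUB, a tubby protein that also binds MERTK, went from 99 and 109 to 16 and 26 counts (4.65-fold lower, log2 fold change -2.22, adjusted p = 8.6e-07). TUB is named after its values were seen. GAS6 and PROS1 were thus higher with the hairpin, while TUB, AXL and TYRO3 were lower.

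Of 5 MET partners tested, 0 were called after siRNA by edgeR, and 0 had an unadjusted p under 0.05. After shRNA 3 of 5 were called, 60% against 60.6% of all genes. SPINT2, an inhibitor of the proteases that activate HGF, rose 1.28-fold (log2 fold change 0.36, SE 0.08, adjusted p = 0.00088), ST14, a membrane protease of that kind, fell 1.20-fold (-0.27, SE 0.08, adjusted p = 0.0063), and MST1R is given above. The ST14 call was lost with all 8 libraries in one fit (-0.28, adjusted p = 0.12).

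**Figure D4:**
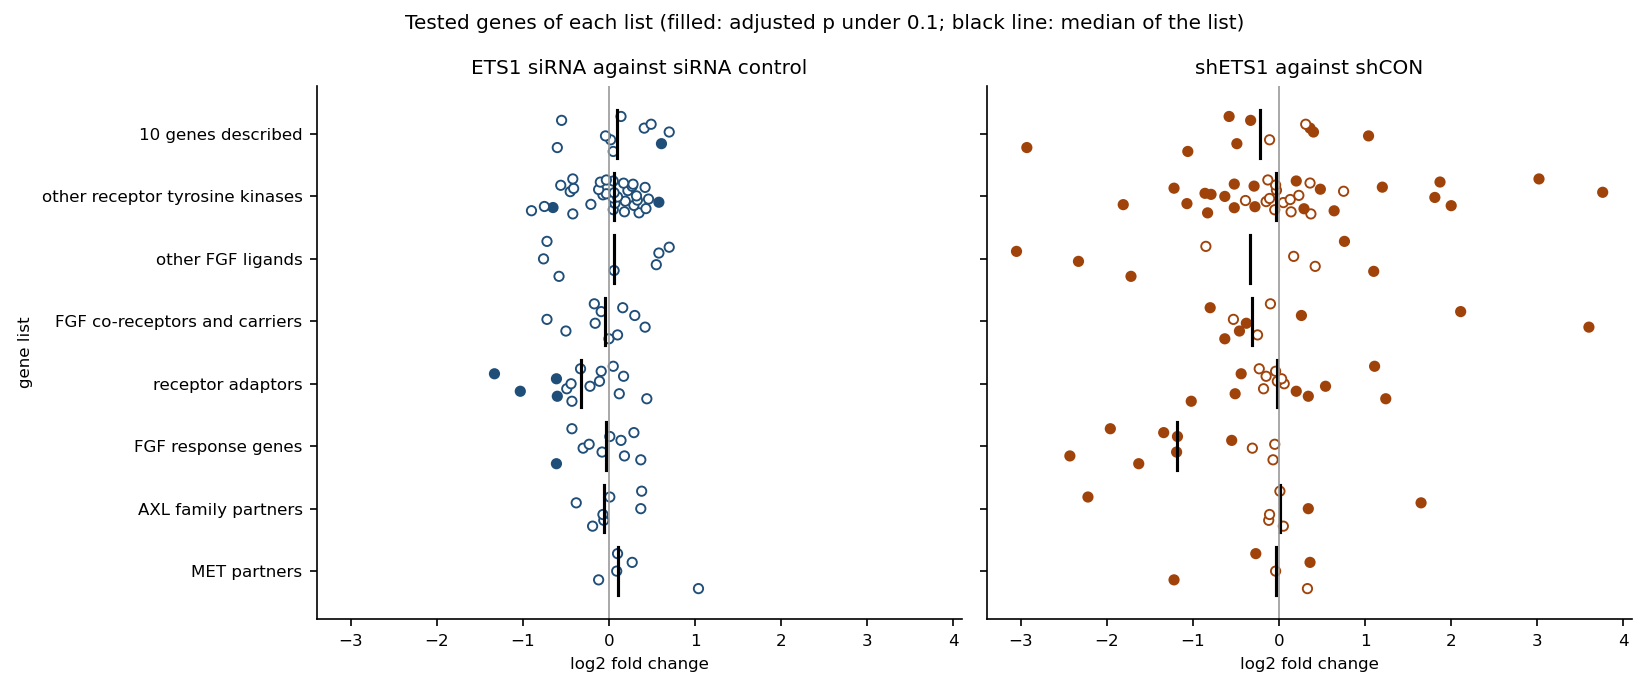
Log2 fold change (horizontal axis) of each tested gene of the 10 genes described and of the 7 pathway lists, after siRNA (left) and after shRNA (right); filled points passed an adjusted p under 0.1 and black lines are list medians. The FGF response genes have a median of -0.03 on the left and -1.19 on the right, and the receptor adaptors -0.33 and -0.02.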

How the data were processed

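SCC25 cells were profiled by RNA sequencing in 8 libraries, 2 per group. The authors made TruSeq RNA libraries, sequenced single reads, aligned these with TopHat2 2.1.1 and Bowtie2 2.2.6 to GRCh37, and assigned them to genes with featureCounts 1.5.0 (versions from the submitters' processing notes). The deposited values are raw counts of reads per gene symbol, in a table for each knockdown. Use of strand and of reads with several matches is not given in the sources used here.

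Counts were tested in edgeR 4.0.16 (R 4.3.3) by its quasi-likelihood F-test, two-sided, after TMM scaling and filterByExpr, over all genes of the 4 libraries of a comparison, and over all 8 for the difference between knockdowns. Calls used Benjamini-Hochberg adjustment and a limit of 0.1. The standard error is the log2 fold change divided by the root of F. CPM are counts per scaled library size; scaling was done within a table, so levels in the 2 tables are not directly comparable. Lengths came from GENCODE v44 lifted to GRCh37, and promoters from RefSeq on GRCh38.p14, where 9 of the 10 genes were searched.

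The 10 genes and the lists were chosen with earlier results of these data known. Besides the 10 genes and ETS1, genes named were, for each list, comparison and direction, up to 4 (other receptor tyrosine kinases) or 2 (other lists) called genes with the lowest adjusted p and a mean of at least 5 CPM. Exceptions are marked where they occur. On simulated data with known changes, 196 changed genes were tested per comparison. Their median absolute log2 fold change was 0.987 for siRNA and 0.98 for shRNA. The test recovered 71.4% of changed genes for the siRNA comparison and 84.2% for the shRNA comparison. Of its calls there, 11.9% and 11.8% were genes without a change. Many changes described here were smaller, and far more genes were called in the shRNA data, so these rates may not hold for them.

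Alternatives were other size factors, library size only, structural RNAs left out, other filters, DESeq2 1.42.0 (the authors' tool), one fit of all 8 libraries, a block for the replicate number, a limit of 0.05 on the adjusted p and leaving out each library. A crossed pairing of the replicates was added after seeing the data.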

Additional observations from a re-analysis of the deposited data

Results flagged for a closer look

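The test of the difference itself (shRNA minus siRNA log2 fold change, edgeR, adjusted p under 0.1) called 23 of 35 named genes. The difference was positive for 10 and negative for 13. A positive difference need not be a rise with the hairpin, as PTPN11 and ETS1 fell in both knockdowns. KDR is not among the 35, because genes with 3 counts or fewer in every library of a group were left out. Genes named as exceptions to the naming rule are not counted either. Most of the 35 genes were named for a call in one knockdown, so their share is not comparable with that of all genes. Groups of 2 libraries are too small for a check of single samples.

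Of the 10 genes, FGF2 differed by -2.35, AXL by -1.13, FGFBP1 by -1.11, TYRO3 by -0.75 and FGFR2 by 1.05. FGFBP1 is the one of these with called changes of opposite sign. ETS1 itself differed by 1.23, the siRNA having lowered it by a larger fold of its own control. Its mean was 268 CPM in siRNA control and 15.3 CPM in ETS1 siRNA, against 77.2 CPM in shCON and 10.4 CPM in shETS1. The 2 tables were scaled separately, so the folds do not tell which knockdown left less ETS1. The fold of ETS1 loss was not matched between the knockdowns, and its part in the differences was not tested.

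Among FGF response genes ETV4 differed by -2.62 and DUSP6 by -1.04. Among adaptors FRS2 differed by 1.21, SOS2 by 1.03, PTPN11 by 0.87, CBLB by 0.78 and CRKL by -0.65. Of the other receptors, ROS1 differed by 1.81, EPHA4 by 1.70, EPHB2 by -1.16, MST1R by -1.12, IGF1R by -0.77 (adjusted p = 0.047) and EPHB3 by -0.55 (adjusted p = 0.037). Of the heparan sulphate carriers SDC2 differed by 2.18, SDC3 by -0.98 and GPC1 by -0.90, and the TAM ligand PROS1 differed by 2.01. The calls for IGF1R and EPHB3 were lost with the replicate block and without single libraries. For IGF1R these were replicate 2 of siRNA control (-0.71), replicate 1 of shCON (-0.58) and replicate 1 of shETS1 (-0.51). For EPHB3 they were replicate 1 of siRNA control (-0.49), replicate 1 of shCON (-0.49) and replicates 1 and 2 of shETS1 (-0.55 and -0.54).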

How the results depend on the processing

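After shRNA and for the difference between knockdowns, the count of the 10 genes called stayed within 1.5 times of 8 and 5 under every alternative run, and no called change reversed its sign. The siRNA counts moved. The count of 1 of 10 became 0 with library size only and with an adjusted p under 0.05, 2 with at least 10 counts in every library and with protein-coding genes of at least 1 TPM, 3 with DESeq2, 4 without a filter and 5 with all 8 libraries in one fit. Leaving out each library in turn gave 0 to 3, with 0 without siRNA control replicate 1. The count of 7 listed genes became 12 without a filter, 17 with all 8 libraries in one fit and 2 with an adjusted p under 0.05, and 3 to 13 when each library was left out.

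With the replicate number as a block the siRNA counts were 0 of the 10 genes and 2 listed genes. The labels give replicates only a number, and deviations of same-numbered libraries correlated at -0.57 in the siRNA groups and -0.13 in the shRNA groups. Pairing replicate 1 with replicate 2 instead, chosen after seeing the data, gave 5 of the 10 genes and 22 listed genes after siRNA, 8 of the 10 after shRNA and 5 for the difference.

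MET missed the threshold after siRNA but passed under 6 of 14 alternatives besides the crossed pairing (adjusted p from 0.012 to 0.74 over all 14), FGFR3 under 5, FGF2 under 3 and GAS6 under 1. Over all genes, 502 siRNA calls became 72 without siRNA control replicate 1, 97 with the block, 797 with DESeq2 and 2166 in one fit. Library size only shifted the median of all genes after shRNA to -0.125 on the log2 scale and called FGFR1 lower (-0.24, adjusted p = 0.097, against 0.097 to 0.86 over its alternatives). FGFR3 differed between the knockdowns without ETS1 siRNA replicate 2 (-0.59, adjusted p = 0.036, against 0.036 to 0.93). With 13 to 31 counts per library, MERTK was limited by depth.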
